A study of Homo sapiens with 2 samples.

Results

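The long neuronal adhesion and guidance genes described here are 46 named protein-coding genes, among them neurexins, contactins, neuregulins, receptors of axon guidance cues and large scaffolds of the synapse. Their members are all crosslink regions of FLAG-tagged Cas9 whose midpoint lay within the RefSeq span of a listed gene on hg38, on either strand. That rule took 95 of 4204 regions in replicate 1 (2.26%, exact 95% binomial interval 1.83 to 2.76) and 120 of 5995 in replicate 2 (2.00%, 1.66 to 2.39). The rule takes regions by gene name and applies no limit on count, strand or score, but the list of genes was drawn up with earlier results of these data known.

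Both libraries came from H1-iCas9 cells, made from H1, an established line of human embryonic stem cells, so that adding doxycycline switches on FLAG-tagged Cas9. Both had the same treatment, 1 µg/ml doxycycline for 24 hours and then ultraviolet light of 254 nm at 300 mJ/cm2, and both form 1 group. In irCLIP, the light fixes a protein to RNA in direct contact with it, the complex is pulled down with an antibody (here anti-FLAG), and the point where the cDNA ends gives the fixed base, which is listed as a crosslink region. Whether the libraries came from separate cultures is not in the labels, and differences between them may be technical. No library without Cas9, no mock precipitation and no RNA abundance were analysed here. The 6 matched marker genes of embryonic stem cells held 0 regions in replicate 1 and 1 in replicate 2, in L1TD1, and of 7 neuron markers 2 held a region in each library. These were MAP2 and SYT1 in replicate 1 and SYT1 and RBFOX3, itself a listed gene, in replicate 2. They span 310 to 588 kb, while the stem cell markers span 6.35 to 47.0 kb. Region counts do not measure expression, so neither the label of the cells nor the transcription of the listed genes could be checked this way.

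The products of these genes work mostly at the surface of neurons. Neurexins and neuroligins join the sides of a synapse, contactins and contactin-associated proteins hold axons and glia together, and Slit, semaphorin and netrin family proteins steer growing axons through receptors such as ROBO1, DCC and UNC5C. The genes are known for very long introns. Their spans ran from 131 kb (SEMA6A) to 2474 kb (RBFOX1), with a median of 1161 kb, and together they covered 3.24% of the sequence that lies in annotated genes. The number of regions expected from length is therefore given beside several of the counts, though not for every gene.

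Nearly all of the genes were hit. A region lay in 39 of the 46 in replicate 1 and in 42 in replicate 2, and 38 were hit in both libraries. By the same rule 5.74% of all protein-coding genes were hit in both, as were 54.7% of the 274 other protein-coding genes of at least 500 kb. KCNIP4, a potassium channel-interacting protein, was hit in replicate 1 only, and CNTN6, SLIT2, RBFOX3 and LSAMP were hit in replicate 2 only. SEMA6A, a membrane-bound semaphorin, ANKS1B, a scaffold of the postsynaptic density, and GRIK2, a kainate receptor subunit, held no region. ANKS1B spans 1250 kb, and its length gave 1.92 regions in replicate 1 and 2.82 in replicate 2.

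**Figure D1:**
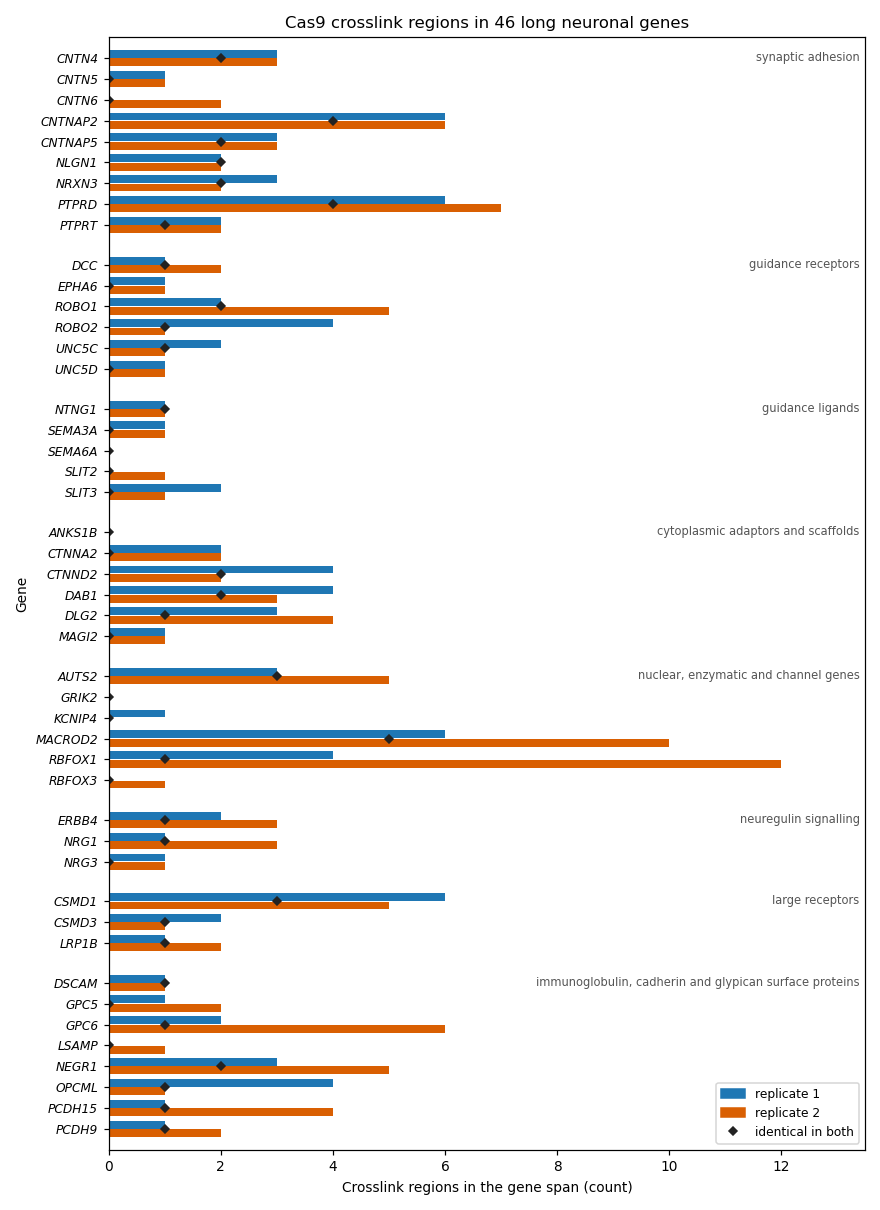
Crosslink regions per gene (horizontal axis, count) in replicate 1 (blue bars) and replicate 2 (orange bars) for the 46 genes, grouped by role, with black diamonds for sites at the same position and strand in both libraries (at 0 where there were none). RBFOX1 reached 12 regions in replicate 2 with 1 identical site, and MACROD2 had 5 identical sites.

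Longer genes tended to hold more regions. Over the 46 genes the number of regions and the span had a Spearman correlation of 0.55 in replicate 1 and 0.53 in replicate 2, a description across genes that share both libraries. The regions per Mb of span were 1.75 in replicate 1 (exact 95% Poisson interval 1.41 to 2.14) and 2.21 in replicate 2 (1.83 to 2.64). Other protein-coding genes of at least 500 kb held 1.45 and 2.01 regions per Mb, and all protein-coding genes held 1.58 and 2.35. Among genes of at least 1 Mb, 25 of 27 listed genes (92.6%) and 32 of 42 others (76.2%) were hit in both libraries, with medians of span of 1437 and 1213 kb. Among genes of 500 kb to 1 Mb the shares were 11 of 14 listed genes (78.6%) and 118 of 232 others (50.9%), with medians of 861 and 642 kb. The listed genes were longer within each class, and these shares are given without a test.

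Gene by gene, no member held more regions than its length gave after adjustment. The one-sided exact Poisson test with Benjamini-Hochberg adjustment over all 59716 genes called 0 members in either library, and every member had an adjusted p of 1.0. Adjustment over so many genes can miss a moderate excess in a single gene, so the lack of calls does not show that there was no excess. Over all genes the same exact Poisson test called 0.0251% in replicate 1 and 0.0368% in replicate 2. All genes had a median span of 5.5 kb, so the shares over all genes given here are not matched to the members in length. At an unadjusted exact Poisson p under 0.05, 0 members passed in replicate 1, where 1.04% of all genes did. In replicate 2, 2 members did so, where 1.53% of all genes did. These were RBFOX1, a neuronal splicing regulator, with 12 regions against 5.58 from length (exact Poisson p = 0.0122), and MACROD2, an ADP-ribose hydrolase gene, with 10 against 4.64 (exact Poisson p = 0.0207). In replicate 1 the same genes held 4 against 3.81 and 6 against 3.17. The lowest p of replicate 1 was that of CTNND2, the adhesion-linked delta-catenin, with 4 regions against 1.43 (exact Poisson p = 0.0577). With regions within 100 bases of each other counted once, RBFOX1 held 9 regions in replicate 2.

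**Figure D2:**
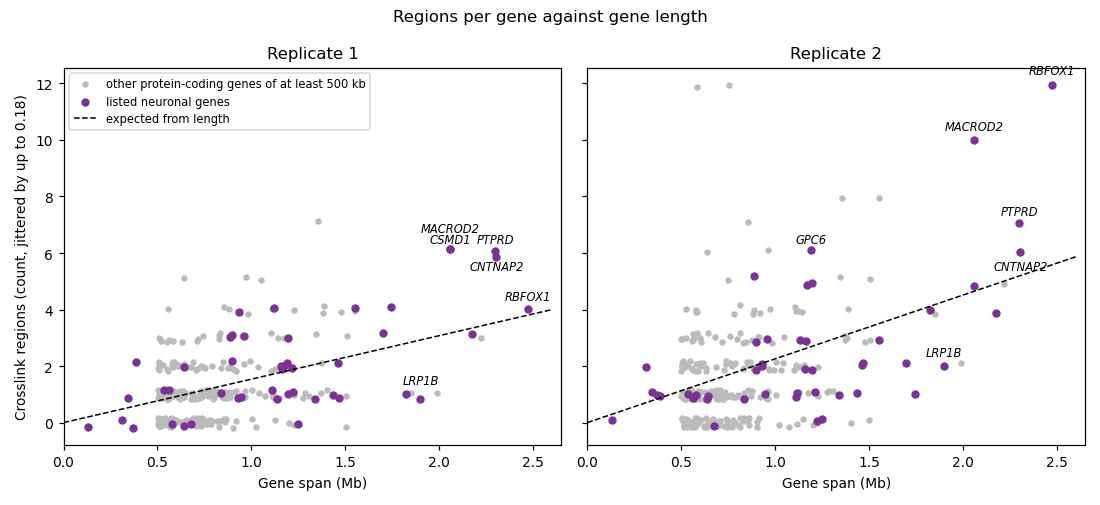
Regions per gene (vertical axis, count) against gene span in Mb (horizontal axis) in replicate 1 (left) and replicate 2 (right), for the listed genes (purple) and the 274 other protein-coding genes of at least 500 kb (grey), with the number expected from length as a dashed line. RBFOX1 and MACROD2 lie farthest above the line among the listed genes of replicate 2, with 12 and 10 regions, and LRP1B lies below it in both.

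The same positions recurred. In all, 164 distinct sites lay in the listed genes, and 51 of them had the same start, end and strand in both libraries, which is 53.7% of the replicate 1 regions (exact 95% interval 43.2 to 64.0) and 42.5% of the replicate 2 regions (33.5 to 51.9). Over all regions the shares were 58.1% and 40.8%, within both intervals. At least 1 identical site lay in 29 genes (63.0%), and 13 genes held at least 2. One lay in 5.01% of all protein-coding genes and in 42.7% of the other protein-coding genes of at least 500 kb. Among genes of at least 1 Mb the shares were 74.1% of listed and 61.9% of other genes. Of the other sites, 44 were in replicate 1 only and 69 in replicate 2 only. Among these, 6 of each library lay within 10 bases of a same-strand region of the other library, in DLG2, MAGI2, NRG3, PTPRT, RBFOX1 and SEMA3A. The remaining 38 and 63 lay more than 1000 bases from one. Of the 38 genes hit in both libraries, 9 had no identical site.

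The adhesion molecules of the synapse and axon held a region in 8 of 9 genes in replicate 1 and in all 9 in replicate 2. They had 26 regions in replicate 1 and 28 in replicate 2 over 11.9 Mb, where length gave 18.2 and 26.8, and 17 sites were identical. CNTNAP2, a neurexin-family protein of the axon, had 6 regions in each library with 4 identical sites, and PTPRD, a receptor tyrosine phosphatase that organises synapses, had 6 and 7 with 4 identical. NRXN3, a presynaptic neurexin, had 3 and 2, and NLGN1, a postsynaptic partner of neurexins, had 2 and 2, with 2 identical sites in each gene. CNTNAP5 and CNTN4, a contactin, had 3 and 3 each, again with 2 identical sites. CNTN5 had 1 region in each library at different positions, and CNTN6 had 2 in replicate 2 only. PTPRT, a homophilic receptor phosphatase, had 2 and 2 with 1 identical site.

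In CNTNAP2 (chromosome 7, 146116801 to 148420998, plus strand) the gene-strand and opposite-strand sites lay in separate stretches. The identical sites on the strand of the gene were at 146426775, with scores of 11.4 in replicate 1 and 7.89 in replicate 2, at 146659694, with 9.96 and 20.8, and at 147518689, with 17.9 and 1.17. The identical site on the opposite strand was at 147746496, with 8.36 and 13.95. All 5 gene-strand sites of the gene, identical or not, lay upstream of all 3 opposite-strand sites. The order in this gene was not tested. The deposited score is the authors' own value per region on an unstated scale. It orders regions within a library, and scores of the libraries are set side by side without a comparison of their size.

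PTPRD (chromosome 9, 8314246 to 10613002, minus strand) had the strongest site of the group in replicate 1. That site, at 10289054 on the strand of the gene, scored 149 in replicate 1 and 46.2 in replicate 2. The site at 8965374 on the opposite strand scored 57.5 and 132. The other identical sites were at 10129689, with 21.4 and 49.5, and at 9503306, with 0.829 and 13.2, the weakest replicate 1 score among the 51. A further pair of replicate 2 sites, at 10609383 and 10609410, lay 3.62 and 3.59 kb from an annotated start of PTPRD. These were the closest to a start of their own gene among the 139 sites with a measured distance. CSMD1 had no start in the annotation used, and its replicate 2 site at 4994325 lay near the edge of its span at 4994914.

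NRXN3 and NLGN1 held recurrent sites on the strand of the gene only. In NRXN3 (chromosome 14, plus strand) the site at 79290655 scored 102 in replicate 1 and 231 in replicate 2, and the site at 79150701 scored 68.3 and 78.8. In NLGN1 (chromosome 3, plus strand) the sites at 173857012 and 173863127 lay 461 and 467 kb from the 5′ edge, and scored 18.6 and 33.7 in replicate 1 and 73.4 and 173 in replicate 2. CNTNAP5 was the reverse case, since both identical sites (chromosome 2, 124291564 with 57.6 and 83.8, and 124893880 with 35.2 and 31.7) lay opposite to the gene. CNTN4 (chromosome 3) had weaker sites on the gene strand, at 2315209 with 4.31 and 3.11 and at 2691619 with 8.24 and 28.97.

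Guidance ligands held few regions in little sequence. The 5 genes cover 2.02 Mb, for which length gave 3.11 and 4.56 regions, and held 4 regions in each library. SLIT3, a secreted repellent read by ROBO receptors, had 2 regions in replicate 1 and 1 in replicate 2 at different positions, and SLIT2 had 1 in replicate 2. SEMA3A, a secreted repellent, had 1 in each library, overlapping at 84350051 on chromosome 7. The only identical site of the group lay in NTNG1, a membrane-anchored netrin, at 107413183 on chromosome 1, opposite to the gene, with scores of 27.7 and 26.2.

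All 6 guidance receptors were hit in both libraries, with 11 regions in each against 9.24 and 13.55 from length. ROBO1, a Slit receptor (chromosome 3, minus strand), had 2 regions in replicate 1 and 5 in replicate 2. Its identical sites lay opposite to the gene, at 79006747 with 88.4 and 242 and at 78945951 with 45.7 and 71.2. ROBO2 had 4 and 1, with an identical site at 76169408 of 54.6 and 31.3, also opposite to the gene. DCC, a netrin receptor, had 1 and 2 regions, and UNC5C, its repulsive partner, had 2 and 1. The identical site of DCC (chromosome 18, 52386220) scored 44.1 and 64.2, that of UNC5C (chromosome 4, 95290862) scored 31.0 and 7.74, and both lay opposite to the gene. UNC5D and EPHA6, an ephrin receptor, had 1 region in each library at different positions. In these 6 genes 5 distinct sites were on the strand of the gene and 10 on the opposite strand, with the strand of UNC5D not in the tables used here. Synaptic adhesion genes had 23 and 14, and the immunoglobulin, cadherin and glypican surface proteins 14 and 8. Adaptors and scaffolds had 11 and 10, nuclear, enzymatic and channel genes 15 and 18, guidance ligands 2 and 3, and neuregulin genes 3 and 3. These splits were not tested.

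Neuregulins and their receptor kinase, 3 genes, had 4 regions in replicate 1 and 7 in replicate 2, against 5.25 and 7.69 from length. NRG1 had 1 and 3, NRG3 had 1 and 1, and ERBB4, the receptor, had 2 and 3. The ERBB4 site at 212094560 on chromosome 2, opposite to the gene, scored 38.2 and 111. NRG1 had an identical site at 32641280 on chromosome 8, with 12.03 and 39.8.

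Other surface proteins ranged from 0 to 6 regions per library. NEGR1, an immunoglobulin-domain protein anchored in the membrane, had 3 regions in replicate 1 and 5 in replicate 2. Its site at 72013956 on the plus strand of chromosome 1 scored 102 and 261, and the other identical site, at 72053535, scored 17.2 and 1.20. GPC6, a glypican, had 2 and 6, with an identical site at 93538625 on chromosome 13 of 60.6 and 118, opposite to the gene. GPC5 had 1 and 2 without an identical site, and its site at 92206186, in replicate 2 only, scored 154, the highest of the sites found in 1 library. OPCML had 4 and 1, and its identical site at 133476414 on chromosome 11 scored 74.0 in replicate 1 and 7.89 in replicate 2. DSCAM, a cell adhesion molecule of the immunoglobulin family, had 1 and 1 at the same position, 40435184 on chromosome 21, with 31.9 and 28.97. The protocadherins PCDH9 and PCDH15 had 1 and 2 and 1 and 4, each with 1 identical site, and LSAMP had 1 in replicate 2.

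Among the large receptors, CSMD1, a complement-regulatory membrane protein, had 6 and 5 regions against 3.17 and 4.65 from length. Its identical sites were at 3551621, with 33.5 and 7.89, at 3684829, with 18.6 and 7.89, and at 3765160, with 8.92 and 6.91. CSMD3 had 2 and 1, with 1 identical site of 66.7 and 32.5. LRP1B, a giant receptor of the LDL receptor family, had 1 and 2 against 2.92 and 4.29, with 1 identical site of 3.59 and 15.3. These 3 genes are not in the table that gives strand.

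The adaptors and scaffolds inside the cell had 14 and 12 regions in 6 genes, against 13.6 and 19.9 from length. DAB1, the adaptor of the reelin pathway (chromosome 1, minus strand), had 4 and 3, and both identical sites lay opposite to the gene, at 57458474 with 32.2 and 111 and at 57230310 with 27.7 and 77.1. CTNND2 had 4 and 2, with identical sites at 11581169 on chromosome 5 on the gene strand (19.7 and 21.8) and at 11683153 on the opposite strand (30.3 and 5.01). DLG2, a postsynaptic scaffold, had 3 and 4 with 1 identical site of 4.87 and 6.04, and a further position shifted by 1 base between the libraries. CTNNA2, the neural alpha-catenin, had 2 and 2, and MAGI2, a scaffold with PDZ domains, had 1 and 1, neither with an identical site. The MAGI2 sites lay 4 bases apart.

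MACROD2 had the most identical sites of the list. The gene (chromosome 20, 13995516 to 16053197, plus strand) held 6 regions in replicate 1 and 10 in replicate 2, and 5 sites were identical. The site at 15918144 scored 277 in replicate 1 and 349 in replicate 2, the highest of the 164 sites in both libraries. It lay opposite to the gene, 1923 kb from the 5′ edge, and inside the noncoding gene LOC613266 too. The identical sites at 15633587 (44.8 and 52.8), 15741848 (29.4 and 20.8) and 15818824 (51.6 and 60.1) were also on the opposite strand. These 4 lay between 79.6% and 93.4% of the way along the gene. The identical site on the gene strand, at 14890755, lay 43.5% along it and inside MACROD2-AS1 too, and scored 99.4 and 31.7.

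Among the 46 genes RBFOX1 had the widest gap in count between the libraries, with 4 regions in replicate 1 and 12 in replicate 2. An exact binomial test of each gene's split between the libraries, added after these counts were seen, gave p = 0.214 for RBFOX1 with a Benjamini-Hochberg adjusted p of 1.0. Over the 3859 genes with a region, 0 passed at an adjusted p under 0.05 and 0 (0%) at an unadjusted p under 0.05, the smallest p being 0.0547. A gene with only a few regions cannot pass either limit in this test, even if all of them lie in 1 library. Many of the 3859 genes held so few, so the lack of calls does not show that the libraries split evenly. The libraries hold the same positions in part, which makes such splits more even than independent counts. RBFOX1 had 1 identical site, at 5928693 on chromosome 16 on the strand of the gene, with 23.1 and 92.2. AUTS2, a regulator of transcription in neurons (chromosome 7, plus strand), had 3 and 5 regions. All 3 replicate 1 sites recurred, at 69729126 (13.9 and 50.8), 70263101 (14.5 and 2.28) and 70731849 (26.9 and 12.5), all opposite to the gene. RBFOX3, a nuclear antigen of mature neurons, had 1 region in replicate 2.

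**Figure D3:**
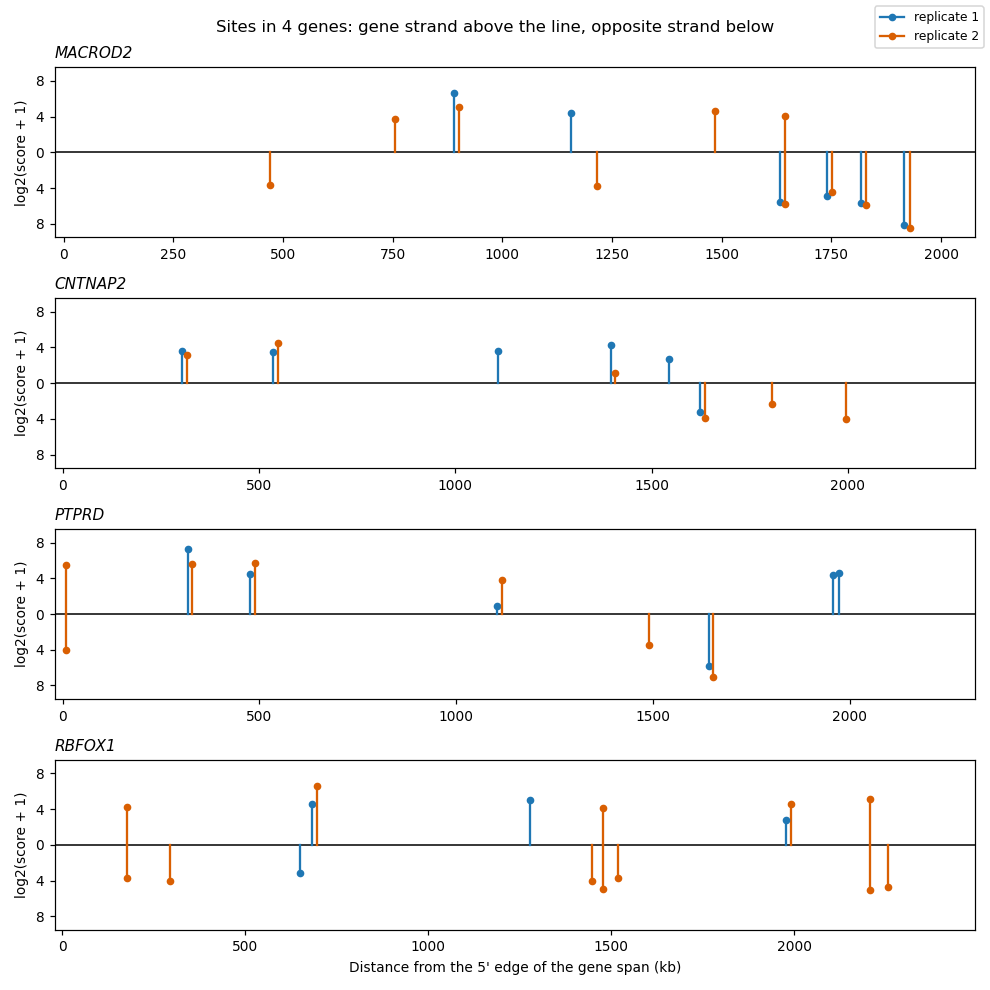
Sites in MACROD2, CNTNAP2, PTPRD and RBFOX1 by distance from the 5′ edge of the gene span in kb (horizontal axis) and log2(score + 1) (vertical axis), with sites on the strand of the gene above the line and on the opposite strand below it, in replicate 1 (blue) and replicate 2 (orange). The libraries are drawn slightly apart so that identical sites can be seen. The 4 identical opposite-strand sites of MACROD2 lie between 1638 and 1923 kb, and its highest scores are 277 and 349.

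The listed strand of the regions matched the strand of the gene about as often as not. Strand was available for 38 of the 46 genes. It was not given for CSMD1, CSMD3, LRP1B, NEGR1, NRG1, SEMA3A, SEMA6A and UNC5D. In replicate 1, 44 of 80 regions (55.0%, exact 95% interval 43.5 to 66.2) were on the strand of the gene, and in replicate 2, 48 of 102 (47.1%, 37.1 to 57.2). Regions in other protein-coding genes of at least 500 kb gave 54.7% and 47.2%, and regions in 1 protein-coding gene and no other gene gave 46.1% and 45.8%. Over distinct sites the number was 73 of 139 (52.5%, 43.9 to 61.0), and over identical sites 19 of 43 (44.2%, 29.1 to 60.1). These intervals include 50% and treat sites of 1 gene as independent. A region on the strand of the gene was listed in both libraries for 19 genes, a count that leaves out the genes without a strand. Another annotated gene also covered 6 of the 164 sites, in DAB1, LSAMP, PCDH9 and SLIT3 and in the MACROD2 sites named above.

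Sites lay along the whole of the genes. Dividing each of the genes with a known strand into 3 equal parts from the 5′ edge gave 44, 47 and 48 distinct sites, of which 21, 29 and 23 were on the strand of the gene. The median distance to the nearest annotated start of the same gene was 242 kb over 139 sites, and the closest was 3.59 kb. The starts used left out 8 listed genes and did not always include the 5′ edge of a span, so some distances may be overstated. The RBFOX1 site at 5411207, for example, lay 171 kb from the 5′ edge but 608 kb from the nearest start used. No member site fell in a promoter window of the table used, which runs from 250 bases before to 50 bases after a start. Of all 10199 regions of both libraries, 118 did, a share that would give few among the 215 member regions. Exons and introns of these genes were not analysed here.

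**Figure D4:**
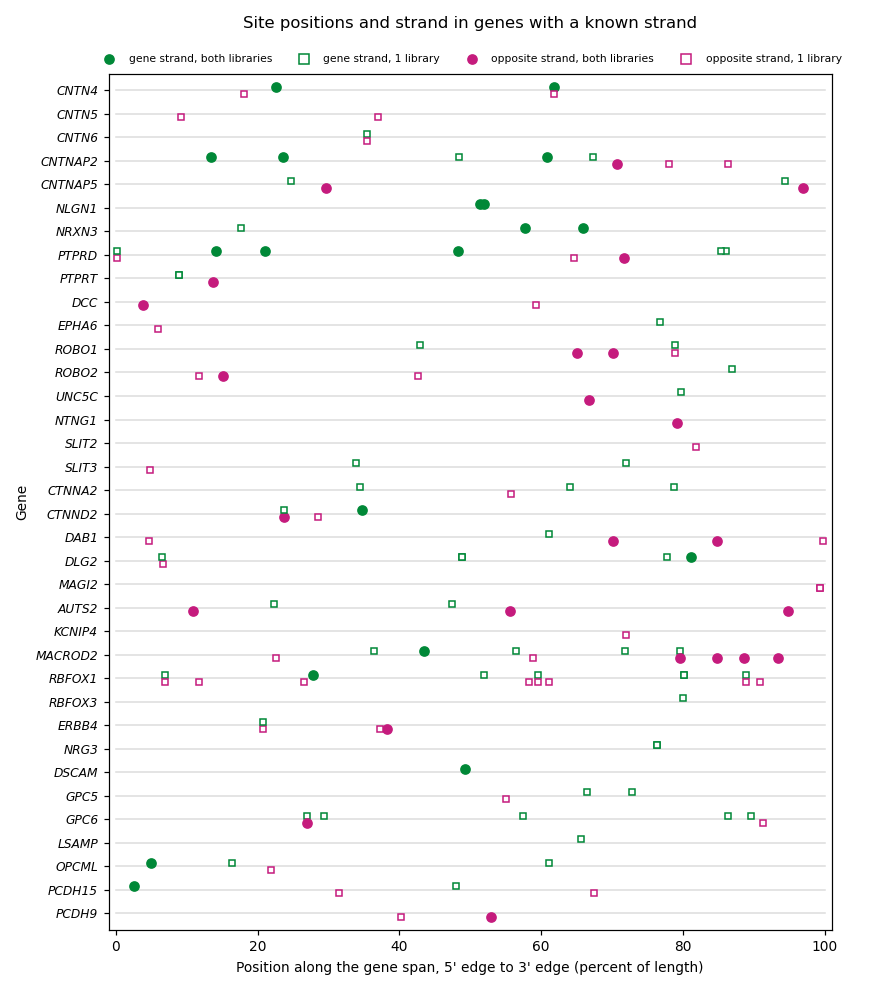
Positions of the 139 distinct sites in genes with a known strand, as percent of the gene span from the 5′ edge (horizontal axis), on the strand of the gene (green, upper) or the opposite strand (pink, lower), found in both libraries (filled circles) or in 1 (open squares). Sites are spread over all parts of the genes, 44, 47 and 48 in the first, middle and last of 3 equal parts.

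The scores of member regions had medians near those of the libraries. The median over member regions was 19.5 in replicate 1 (from 0.322 to 277) and 20.8 in replicate 2 (from 0.474 to 349), against 21.4 and 21.3 over all other regions. The upper quartile was lower, 33.7 against 47.1 in replicate 1 and 42.5 against 57.6 in replicate 2. No member region reached the score of 708.396 at which single sites stop, which 78 regions of replicate 1 and 113 of replicate 2 did. Sites identical in both libraries had higher median scores than the other member regions, 30.3 against 11.9 in replicate 1 and 32.1 against 16.2 in replicate 2. The same split was not made over all regions, so it is not known to be particular to these genes. Many scores were tied. In replicate 2 the score 12.522 was shared by 502 regions, 8 of them in the listed genes, and in replicate 1 the score 10.712 was shared by 135, 5 of them in the listed genes.

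The 51 identical sites kept their order of score only in part between the libraries. The Spearman correlation of the scores was 0.63, as a description over sites of the same libraries. In CNTNAP2, for example, the identical site with the highest replicate 1 score had the lowest replicate 2 score of the 4.

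**Figure D5:**
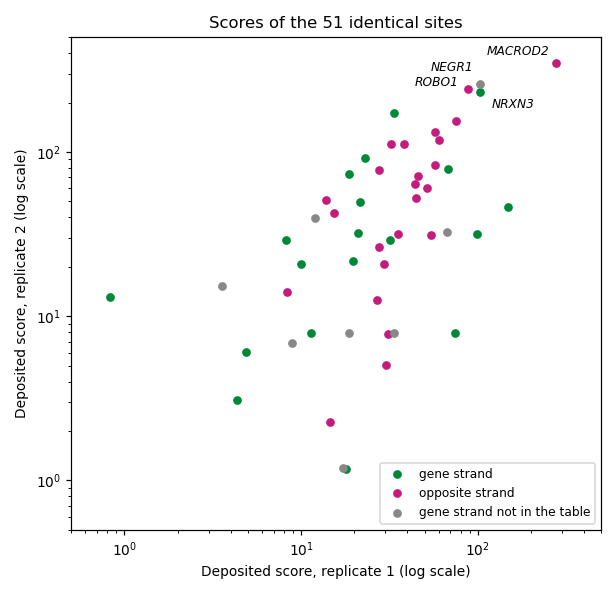
Deposited scores of the 51 identical sites in replicate 1 (horizontal axis) and replicate 2 (vertical axis), both on log scales, coloured by strand relative to the gene. The MACROD2 site is highest in both, at 277 and 349. The scale of the score is unstated, so the plot shows the order of sites within each library.

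Some sites came as pairs on opposite strands a short distance apart. In replicate 2, 20 of the 120 member regions (16.7%, exact 95% interval 10.5 to 24.6) stood in 10 such pairs within 100 bases, and in replicate 1, 4 of 95 (4.21%, 1.16 to 10.4) stood in 2. Over all regions the shares were 14.4% and 5.71%. In all 12 member pairs the plus-strand site had the lower coordinate, and the sites lay 19 to 28 bases apart. The same order held in all 120 pairs of replicate 1 and all 431 of replicate 2 over the whole data, where the median distance was 25 bases in each library. RBFOX1 held 3 of the pairs, at 5411207 and 5411235, at 6712216 and 6712235, and at 7439895 and 7439918, all in replicate 2. The others lay in CNTN4 and CTNND2 in replicate 1, and in CNTN6, ERBB4, GPC6, MACROD2, NEGR1, PTPRD and ROBO1 in replicate 2. No pair was complete in both libraries. Both CNTN6 regions and 6 of the 12 RBFOX1 regions of replicate 2 were parts of a pair, so these counts hold fewer separate positions than regions.

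Other genes of the same families and pathways were mostly shorter. Of 67 relatives, such as other contactins, protocadherins, ephrin receptors, glypicans and kainate receptors, with a median span of 197 kb, 13 (19.4%) were hit in both libraries and 42 had none. They held 1.13 and 1.67 regions per Mb. CTNNA3, an alpha-catenin of 1851 kb, had 1 and 4 regions against 2.85 and 4.18 from length, with 1 identical site. DSCAML1 had 1 and 1 and GRIK4 had 1 and 2, each with 1 identical site. Among the other long genes the most identical sites lay in ARHGAP15 with 4, from 5 and 6 regions in 639 kb, in ZFHX3, a homeobox transcription factor, with 4, and in ASIC2, an acid-sensing ion channel, with 3. All 6 of these genes had an adjusted p of 1.0 in both libraries in the exact Poisson test.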

How the data were processed

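Crosslink regions of 2 Cas9 irCLIP libraries of 1 group were analysed. The authors deposited 1 region list per library, with a score per region that is the sum of its site scores on an unstated scale. Per the submitters' processing notes, which state no role or order, the tools include STAR 2.5.2, Bowtie2 2.3.5 and UMI-tools, and the build was hg38. Which caller made the regions, with what threshold and what use of multi-mapped reads, is not stated in those notes. The read depth is unknown, and each interval covers only counting error among listed regions.

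Regions were placed by midpoint in RefSeq spans on GRCh38.p14, the assembly of hg38, with 59716 genes on placed chromosomes, and positions are 1-based. Gene strand and start sites came from a table of RefSeq promoters, which held 38 of the 46 genes. Exons, introns and the sequence at sites were not analysed here. Identical means equal start, end and strand. Expected numbers are the regions of a library in genes times gene length over the length covered by genes. They were tested by a one-sided exact Poisson test, Benjamini-Hochberg adjusted over all genes, after a test on simulated data. Python 3.11.15, pandas 2.3.3 and SciPy 1.17.1 were used. Intervals are Clopper-Pearson for shares.

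Sites were named where identical in genes with at least 2 identical sites, among the 10 highest summed scores (a sum used only to choose which sites to name), or singled out after their values were seen. Of the relatives and of the other long genes, the 3 with the most identical sites were named. The members and lists were chosen with earlier results of these data known. Other score limits, placements, strand rules and single libraries were tried as alternatives.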

Additional observations from a re-analysis of the deposited data

How the results depend on the processing

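Placing regions by any overlap gave the same number of distinct sites, identical sites and genes hit in both libraries, the same gene-strand share and median score, and the same count in each of the 46 genes. Other values were not recomputed with it. With regions at or above the median score of their library, distinct sites fell to 73, genes hit in both libraries to 20 and identical sites to 26, with a median score of 42.5, and the count of both libraries moved by over 1.5 times in 30 of 46 genes. With regions within 100 bases counted once, the sites were 153 and the median score 20.8, against 19.7 over both libraries as deposited. Restricting regions to the strand of the gene left 19 genes hit in both libraries, and leaving out regions in another gene left 37. Leaving out either library gave 95 to 120 sites, a median score of 19.5 to 20.8 and a gene-strand share of 47.1% to 55.0%. Allowing starts within 10 bases raised identical sites to 57. No member was called in the exact Poisson test under the other 3 settings, with adjusted p from 0.948 to 1.0, although the calls over all genes fell from 15 and 22 to 0 and 5 when close regions were counted once. The intron alternatives were not run, because the tables used hold no exons. No paired analysis was possible because the libraries form 1 group. Without a control library and with unknown depth, an empty gene shows only that no region was listed.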
